A study of Mus musculus with 10 samples.

Results

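Solute carriers of the meningeal barrier were followed in mouse hippocampus after subarachnoid hemorrhage. These are 8 genes of the families Slc6, Slc13, Slc22 and Slc47 that serve the leptomeninges and other brain barriers, found by their symbols among 24391 gene names: Slc13a4, Slc13a3, Slc6a13, Slc6a12, Slc6a20a, Slc22a6, Slc22a8 and Slc47a1. All 8 were present and all 8 passed the filter on low counts. The list was drawn up with results of these mice known, so its comparisons between groups are given as a description. Where calls or an adjusted p of these genes are printed, they come from the fit over all genes and are not independent evidence.

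Each library came from the whole hippocampus of both sides of 1 male mouse, 10 to 14 weeks old, of a strain that the study's methods print as C56BL/6J. Tissue of operated mice was taken on day 4 after surgery. SAH mice (n = 4, mice 1 to 4) had the circle of Willis, the arterial ring under the brain, pierced with a filament, and were kept only if cerebral blood flow dropped at once. Sham mice (n = 3, mice 5 to 7) had the filament pushed up to the point of resistance with no puncture. Naive mice (n = 3, mice 8 to 10) were not operated on. Control denotes Sham and Naive mice pooled, as the study's design had it. The methods describe the operation under isoflurane anesthesia, with the filament entering by the stump of a cut and tied external carotid artery, and do not say whether Naive mice were anesthetized. In Sham against Naive and SAH against Naive, anesthesia and neck surgery cannot be told apart from the other parts of the operation. No transgene or deletion is named for any group.

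The leptomeninges, the arachnoid and pia, wrap the brain and follow the vessels that enter it. Cells of the arachnoid barrier are joined by tight junctions and separate the blood of the dura from the cerebrospinal fluid. Like the epithelium of the choroid plexus, they carry transporters that move anions, amino acids, metabolites and drugs between the fluid and the blood. A dissected hippocampus holds only the leptomeninges and choroid plexus that stay attached to it, and in bulk RNA more cells of a type cannot be told apart from more RNA per cell.

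Libraries held 19743388 to 27254655 counts. CPM below is the count scaled to a common library size (TMM), which compares a gene between mice, and RPKM is CPM per kilobase of exon, which compares genes. The 7 hippocampal neuron markers summed to 4724 to 5047 CPM and were all detected in every mouse, and all 17 leptomeningeal markers were detected in every mouse. The 13 choroid plexus epithelium markers differed widely between libraries: 56.1 to 78.2 CPM in Naive mice, 227, 66.3 and 865 CPM in Sham mice 5, 6 and 7, and 114, 230, 1265 and 898 CPM in SAH mice 1 to 4. SAH mouse 3 stood apart from the other SAH mice in its counts (chi-square per degree of freedom of 15.3 to 19.3 for its pairs). SAH mouse 4 also differed from mice 1 and 2 (10.7 and 9.50), which were closer to each other (4.28). Sham mice 5 and 7 had 9.09. The carriers' counts and their log2 fold changes for SAH against control are therefore also given without SAH mice 3 and 4 and Sham mouse 7.

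Of the 8 genes, 4 lie in pairs within 10 kb. On mm9 chromosome 6, Slc6a13 (121250314 to 121287736) and Slc6a12 (121296715 to 121315791) are on the plus strand, 8978 bases apart. On chromosome 19, Slc22a8 (8665744 to 8686325) and Slc22a6 (8692486 to 8702789) are on the plus strand, 6160 bases apart. Slc13a4 (chromosome 6, 35217953 to 35258126), Slc13a3 (chromosome 2, 165230795 to 165298697), Slc6a20a (chromosome 9, 123546025 to 123587950) and Slc47a1 (chromosome 11, 61156902 to 61191577) are on the minus strand. Slc6a20a and Slc47a1 each have a family member beside them, Slc6a20b and Slc47a2, which held 0 to 3 and 0 to 2 counts per mouse. No exon of the 8 genes overlapped an exon of another gene.

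The promoters of 3 genes are shown because they go with the patterns below: Slc13a4 was the carrier whose 3 groups did not overlap, Slc22a6 was the carrier nearest to the mean profile of all 8, and Slc6a20a holds a motif that Slc22a6 also holds. Each is the 250 bases before the first exon in mm9, read in the direction of the gene, from chr6:35258127-35258376 (Slc13a4, minus strand), chr19:8692236-8692485 (Slc22a6, plus strand) and chr9:123587951-123588200 (Slc6a20a, minus strand). Capitals mark matches to CCAAT, to the GC box GGGCGG and to the HNF1 half-site GTTAAT, and a match on the other strand appears as its reverse complement.
Slc13a4: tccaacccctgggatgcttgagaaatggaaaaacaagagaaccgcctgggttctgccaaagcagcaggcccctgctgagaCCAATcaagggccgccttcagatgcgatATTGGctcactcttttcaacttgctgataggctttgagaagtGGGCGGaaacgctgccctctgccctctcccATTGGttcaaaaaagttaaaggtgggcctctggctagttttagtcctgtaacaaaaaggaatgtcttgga
Slc22a6: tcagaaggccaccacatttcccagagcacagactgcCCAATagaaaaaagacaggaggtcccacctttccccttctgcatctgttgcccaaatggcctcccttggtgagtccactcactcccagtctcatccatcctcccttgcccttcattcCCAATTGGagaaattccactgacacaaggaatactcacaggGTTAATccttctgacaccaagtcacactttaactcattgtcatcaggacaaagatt
Slc6a20a: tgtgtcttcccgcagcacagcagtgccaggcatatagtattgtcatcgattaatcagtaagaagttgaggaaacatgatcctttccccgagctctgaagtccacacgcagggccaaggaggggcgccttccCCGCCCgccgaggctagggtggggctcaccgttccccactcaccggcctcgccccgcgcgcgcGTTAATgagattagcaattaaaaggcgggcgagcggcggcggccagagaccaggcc

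Both strands of 7 promoters, all but that of Slc22a8, were searched for 5 motifs. CCAAT occurred in 3 of the 7 (Slc13a4, Slc6a12 and Slc22a6) and in 35.1% of 24177 promoters of the same length. In Slc22a6 a sense and an antisense match overlap at positions -97 to -90 from the start. The GC box occurred in 5 of 7 (41.3% of all promoters): Slc13a4, Slc13a3, Slc6a13, Slc6a20a and Slc47a1. GTTAAT occurred in Slc6a20a and Slc22a6 (5.67% of all promoters), in both on the sense strand. The forkhead core GTAAACA occurred in Slc6a12 (2.66%), and the TATA box TATAAA in 0 of 7 (12.1%). The matches depend on the start taken. The start in the files was 26 bases from the nearest start of the reference annotation for Slc6a20a, 79 for Slc6a12 and 0 to 7 for the other 5 genes. The windows of Slc13a4, Slc13a3, Slc6a20a and Slc22a6 were identical to that part of the gene's RefSeq promoter, and those of Slc6a13 and Slc6a12 were not. These are matches of letters and say nothing about the factors.

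Slc13a4, a sodium-coupled sulfate transporter, was the carrier with the clearest order of groups. It was measured at 3.23, 3.09 and 4.54 CPM in Naive mice 8, 9 and 10, at 9.45, 8.46 and 13.1 CPM in Sham mice 5, 6 and 7, and at 17.4, 18.6, 14.2 and 16.9 CPM in SAH mice 1 to 4. Every Sham mouse lay above every Naive mouse and every SAH mouse above every Sham mouse, an order without overlap that 0.443% of the 15134 genes tested had. Of the 8 carriers it was the only one with that order. The leptomeningeal marker Aldh1a2 had it too, at 2.83 to 4.50, 5.87 to 6.56 and 7.98 to 11.8 CPM in Naive, Sham and SAH mice. Of the 10 genes named below as most like the carriers, Aldh1a2, Fmod and Thbd had the order and the others did not. The summed leptomeningeal markers had it as well. Mean levels of Slc13a4 were 3.62 ± 0.801 CPM (SD, n = 3) in Naive, 10.3 ± 2.45 CPM (SD, n = 3) in Sham and 16.8 ± 1.82 CPM (SD, n = 4) in SAH. The edgeR log2 fold changes were 1.51 ± 0.190 (SE) for Sham against Naive, 0.70 ± 0.158 for SAH against Sham and 2.21 ± 0.180 for SAH against Naive, and any 2 of these comparisons have a group of mice in common.

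Slc13a3, a sodium-coupled transporter of dicarboxylates such as succinate, differed little between Sham and Naive mice. Naive mice had 11.9, 14.3 and 13.2 CPM and Sham mice 13.6, 15.5 and 13.9 CPM, while SAH mice 1 to 4 had 23.7, 20.7, 9.50 and 17.6 CPM. SAH mice 1, 2 and 4 lay above all 6 control mice and SAH mouse 3 lay below all of them. Its log2 fold change for SAH against control was 0.38 ± 0.177 (SE), with 0.23 without SAH mouse 1 and 0.59 without SAH mouse 3 as the lowest and highest values when a mouse was left out.

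Slc6a13 carries GABA and taurine. It was at 5.60, 3.29 and 5.60 CPM in Naive mice, 8.25, 9.04 and 7.48 CPM in Sham mice and 14.1, 15.4, 5.96 and 13.6 CPM in SAH mice. SAH mouse 3 fell below the 3 Sham mice and the other SAH mice lay above all control mice. The log2 fold change for SAH against control was 0.90 ± 0.259 (SE).

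Slc6a12, its neighbour on chromosome 6, carries betaine and GABA and was near the limit of detection. It had 2, 3 and 13 counts in Naive mice, 14, 30 and 20 in Sham mice and 30, 56, 21 and 21 in SAH mice. This is 0.0752 to 0.552 CPM in Naive, 0.578 to 1.10 CPM in Sham and 0.839 to 2.06 CPM in SAH. All Sham and all SAH mice lay above all Naive mice, and Sham and SAH mice overlapped. A count of 2 or 3 is no more than a count of 0 allows, so the Naive level behind the log2 fold change of 2.37 ± 0.525 (SE) for SAH against Naive rests mostly on the 13 counts of mouse 10, without which it was 3.58.

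Slc6a20a, a sodium-coupled carrier of proline and other imino acids, was at 5.68, 5.61 and 5.43 CPM in Naive mice, 6.73, 10.4 and 8.21 CPM in Sham mice and 11.3, 15.1, 10.1 and 15.8 CPM in SAH mice. The Naive mice were close together and below all other mice, and SAH mouse 3 lay just under Sham mouse 6. The log2 fold change for SAH against control was 0.90 ± 0.184 (SE).

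Slc22a6 and Slc22a8 encode organic anion transporters, known from the kidney for the uptake of drugs and metabolites. Slc22a6 was at 1.81, 1.95 and 2.67 CPM in Naive mice, 4.25, 5.26 and 4.18 CPM in Sham mice and 11.6, 8.83, 3.44 and 6.52 CPM in SAH mice. All Sham and SAH mice lay above all Naive mice, and SAH mouse 3 was below the Sham mice. Slc22a8 was at 7.33, 9.72 and 8.15 CPM in Naive mice, 8.46, 11.1 and 8.73 CPM in Sham mice and 12.4, 13.7, 13.1 and 16.5 CPM in SAH mice. Here Sham and Naive overlapped and every SAH mouse, mouse 3 included, was above every control mouse. The log2 fold changes of Slc22a6 were 1.09 ± 0.360 (SE) for Sham against Naive and 1.17 ± 0.322 for SAH against control, and those of Slc22a8 were 0.18 ± 0.149 and 0.65 ± 0.114. For Slc22a8 the value for Sham against Naive was 0.04 without Sham mouse 6, 0.08 without Naive mouse 8 and 0.29 without Naive mouse 9.

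Slc47a1 encodes an exchanger of protons for organic cations that takes drugs out of cells. It had 12 to 52 counts per mouse, at 0.790, 0.617 and 1.10 CPM in Naive mice, 0.825, 1.51 and 0.684 CPM in Sham mice and 2.51, 1.62, 0.606 and 0.680 CPM in SAH mice. SAH mice 1 and 2 were the highest and SAH mouse 3 the lowest of the 10, so the groups overlapped. The log2 fold change for SAH against control was 0.54 ± 0.377 (SE), and it ranged from 0.09 (without SAH mouse 1) to 0.77 with each mouse left out in turn.

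**Figure D1:**
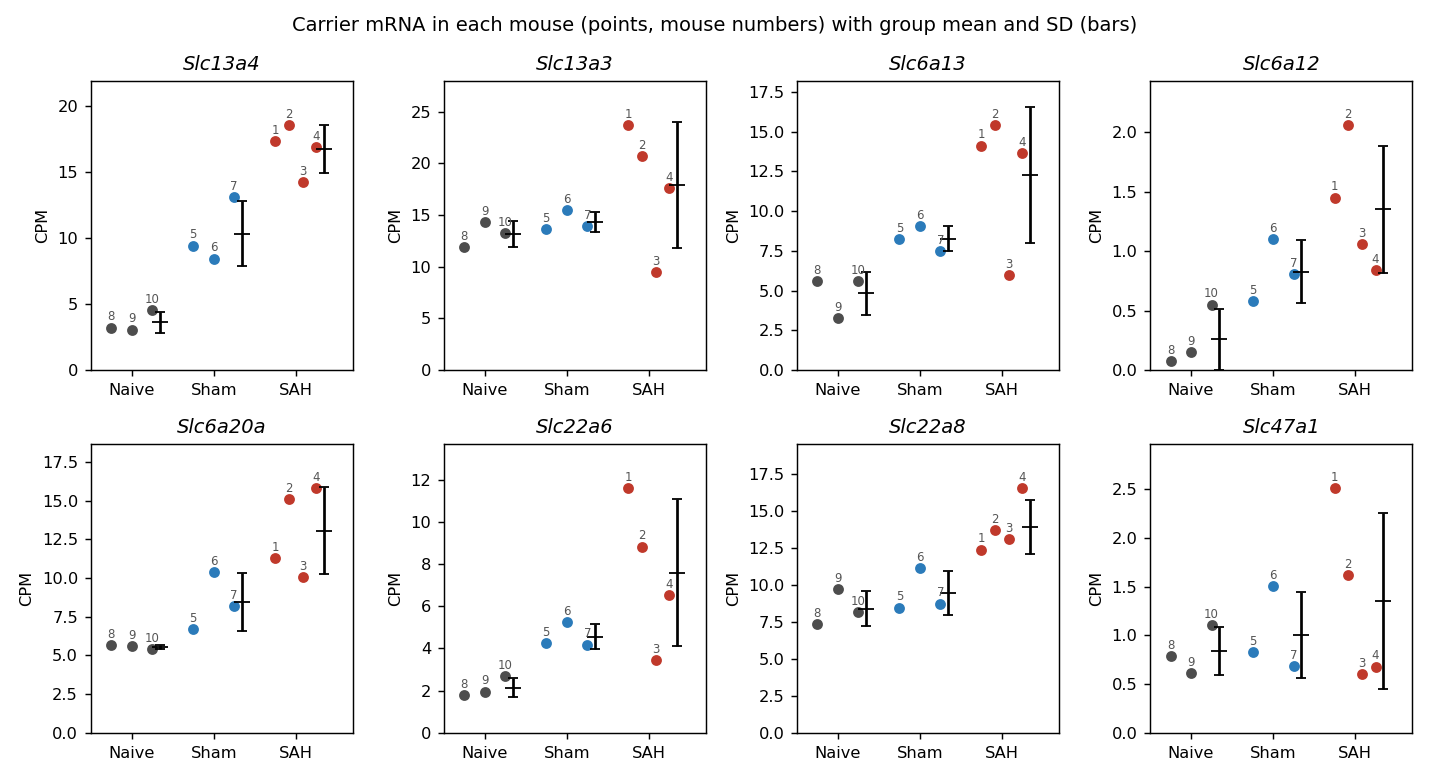
Level of each carrier in CPM (y axis, linear, from 0) in Naive, Sham and SAH mice (x axis). Points are single mice with their numbers, and bars are the group mean and SD. Slc13a4 shows 3 separate groups, Slc22a8 has all 4 SAH mice above the 6 control mice, and SAH mouse 3 is the lowest SAH mouse for 6 of the 8 genes.

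Per length, the order of the carriers differed between groups. In Naive mice Slc13a3 led with 4.09 ± 0.377 RPKM (SD, n = 3), followed by Slc6a20a (2.94 ± 0.0666), Slc22a8 (2.39 ± 0.345), Slc6a13 (2.25 ± 0.621), Slc13a4 (1.06 ± 0.234), Slc22a6 (0.533 ± 0.115), Slc47a1 (0.318 ± 0.0936) and Slc6a12 (0.102 ± 0.0997). Of these neighbours, only the ranges of Slc22a8 and Slc6a13 overlapped. In Sham mice Slc6a20a (4.46 ± 0.977 RPKM) and Slc13a3 (4.45 ± 0.309) headed the order, with overlapping ranges. In SAH mice Slc6a20a had the highest mean (6.90 ± 1.49 RPKM, n = 4), and Slc6a13 (5.71 ± 1.99), Slc13a3 (5.55 ± 1.90), Slc13a4 (4.90 ± 0.532) and Slc22a8 (3.97 ± 0.521) followed, each overlapping the next. Slc22a6 (1.89 ± 0.861 RPKM), Slc6a12 (0.528 ± 0.209) and Slc47a1 (0.514 ± 0.342) were again the 3 lowest.

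Across the 4 comparisons all 8 log2 fold changes were above 0 with every mouse included. With a mouse left out, those of Slc47a1 turned to -0.03 in SAH against Sham (without SAH mouse 1) and to -0.16 in Sham against Naive (without Sham mouse 6). Their median was 0.68 for Sham against Naive, 0.61 for SAH against Sham, 1.29 for SAH against Naive and 0.90 for SAH against control, where the median of all genes tested was 0.00 in each. These comparisons share mice, so their directions are not separate observations. All Sham mice were above all Naive mice for 5 carriers (Slc13a4, Slc6a13, Slc6a12, Slc6a20a and Slc22a6), against 4.84% of all genes. All SAH mice were above all Naive mice for these 5 and Slc22a8 (7.04% of all genes). They were above all Sham mice for Slc13a4 and Slc22a8 (5.03%), and above all control mice for the same pair (2.83%).

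**Figure D2:**
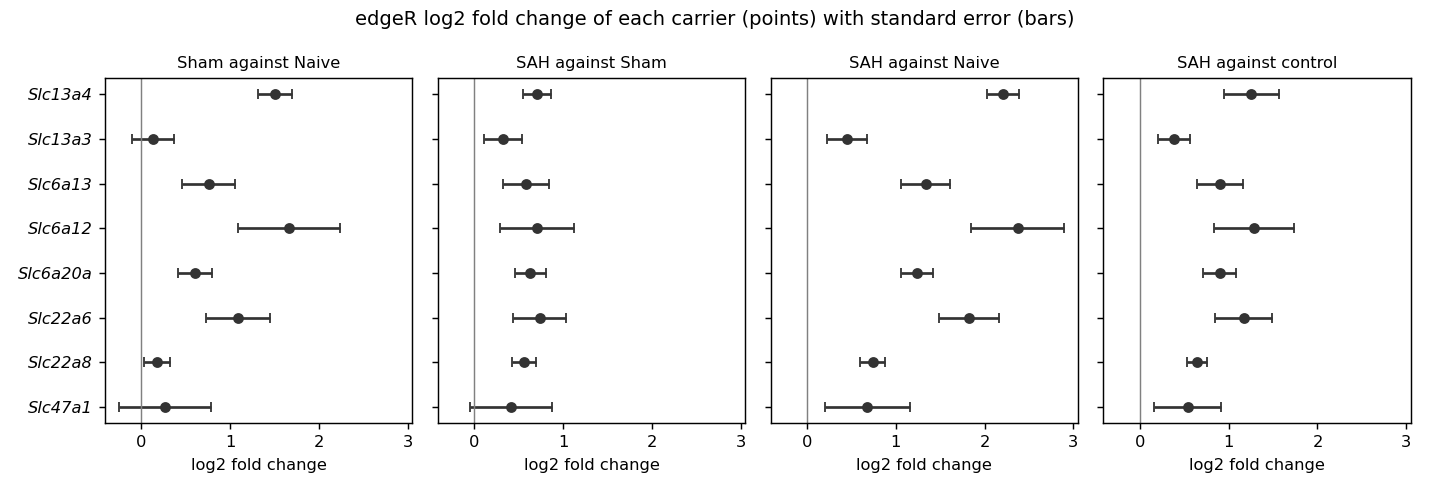
edgeR log2 fold change (x axis) of each carrier (y axis) in 4 comparisons. Points are estimates and bars standard errors, and the grey line is no difference. For Slc13a4 the step from Naive to Sham (1.51) is larger than that from Sham to SAH (0.70), whereas for Slc22a8 it is smaller (0.18 and 0.56).

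In SAH against control, 5 of the 8 carriers were past an adjusted p of 0.10 in edgeR's quasi-likelihood test over all 14993 genes (Slc13a4, Slc6a13, Slc6a20a, Slc22a6 and Slc22a8), beside 3.13% of all genes tested that were higher in SAH. The list was chosen on such differences, and nothing is read from this count. Slc6a20a and Slc22a8 stayed past the threshold with each of the 10 mice left out in turn. Slc13a4 was not past it once SAH mouse 4 (log2 fold change 1.25), Naive mouse 8 (1.10) or Naive mouse 10 (1.16) was left out. Among the fits that left out a mouse, Slc22a6 was past it only without SAH mouse 3, Sham mouse 6 or Sham mouse 7, and Slc6a13 only without SAH mouse 3 or Sham mouse 6. The count was 3 without SAH mouse 1, SAH mouse 2, Naive mouse 9 or Sham mouse 5, where 3.94%, 4.55%, 2.13% and 2.25% of all genes were past the threshold and higher. It was 2 when SAH mouse 4 or either of Naive mice 8 and 10 was omitted (1.48%, 1.82% and 1.92% of all genes). It was 6 without SAH mouse 3 (2.75%), and 6 without the 3 libraries highest in choroid plexus markers (1.70%), with Slc13a3 added in both. DESeq2 called 4 and not Slc6a13, beside 6.42% of the genes it tested that were higher or lower. Without the 3 libraries the log2 fold changes were 1.63 for Slc13a4, 0.69 for Slc13a3, 1.20 for Slc6a13, 1.80 for Slc6a12, 0.96 for Slc6a20a, 1.65 for Slc22a6, 0.55 for Slc22a8 and 1.04 for Slc47a1.

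In SAH against Sham, 0 of the 8 were past the threshold in edgeR (0.529% of all genes were past it and higher). At an unadjusted p under 0.05 there were 5 of 8 (9.69% of all genes), and DESeq2 called 3 of 8, Slc13a4, Slc6a20a and Slc22a8 (1.91%). The edgeR count was 1 without SAH mouse 1 (Slc22a8) or Sham mouse 7 (Slc13a4), 6 without SAH mouse 3, and 4 without the 3 libraries, beside 0.853%, 0.0983%, 1.10% and 0.694% of all genes past the threshold and higher. In SAH against Naive, 6 of 8 were past the threshold, Slc13a3 and Slc47a1 being the others (2.03% of all genes were past it and higher). This fell to 2 without Naive mouse 8 and to 3 without Naive mouse 9, and rose to 8 without the 3 libraries, where the share of all genes was 0.570%, 0.705% and 1.85%. The choroid plexus markers were higher in the same comparison: all 13 log2 fold changes were above 0, with a median of 2.16 beside 1.29 for the carriers. Of these 13, 12 had an unadjusted p under 0.05 (14.8% of all genes), edgeR called 2 (Ttr and Kcnj13, a potassium channel) and DESeq2 called 5 (4.56% of all genes). Neither of the 2 was called when any 1 Naive mouse was omitted, and Ttr also not without SAH mouse 3, SAH mouse 4 or Sham mouse 5. Their part in the carriers' differences was not tested.

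Sham against Naive compares the control groups with each other. Slc13a4 was the 1 gene of 15134 past the threshold (0.00661%; adjusted p = 0.0488 from edgeR, range 0.0137 to 0.720 with each mouse left out in turn). The list was made with this known, so the value is not independent evidence. The call was lost without SAH mouse 1, SAH mouse 4, Naive mouse 8, Naive mouse 9, Sham mouse 5 or Sham mouse 7, with log2 fold changes of 1.51, 1.51, 1.42, 1.41, 1.57 and 1.30. DESeq2 called 2 genes (0.0102%), Slc13a4 among them, and at an unadjusted p under 0.05 edgeR had 305. The choroid plexus markers also stood higher in Sham mice 5 and 7. All 13 had log2 fold changes above 0 in Sham against Naive, with a median of 1.56 beside the 1.51 of Slc13a4, and 5 had an unadjusted p under 0.05 (2.02% of all genes), though edgeR and DESeq2 each called 0. In Sham mouse 6 they summed to 66.3 CPM, inside the Naive range, and Slc13a4 was at 8.46 CPM there, above the Naive maximum of 4.54. The part of choroid plexus RNA in the difference was not tested.

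The leptomeningeal markers were set beside the carriers. Of 17 leptomeningeal markers, 13 rose in SAH against control by edgeR (adjusted p under 0.10), beside 3.13% of all genes tested, and 0 fell. Their median log2 fold change was 1.02. The largest were Crabp2, a carrier protein for retinoic acid (1.55 ± 0.317, adjusted p = 0.0192), Ogn, a small proteoglycan (1.38 ± 0.279, adjusted p = 0.0180), Col3a1, a fibrillar collagen (1.38 ± 0.247, adjusted p = 0.00929), and Igf2, a growth factor (1.25 ± 0.200, adjusted p = 0.00535). Each of the 13 stayed past the threshold with every mouse left out in turn. Summed over the list, Naive mice had 179 to 188 CPM, Sham mice 221 to 233 CPM and SAH mice 459, 425, 248 and 333 CPM, so SAH mouse 3 was again the lowest SAH mouse. In Sham against Naive, edgeR and DESeq2 each called 0 of the 17, and 4 had an unadjusted p under 0.05 in edgeR (2.02% of all genes). Of the 17 log2 fold changes 16 were above 0, with a median of 0.34. Every Sham mouse lay above every Naive mouse for 8 of the 17 (4.84% of all genes). The part of these cells in the carriers' differences was not tested.

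Set against the geometric mean of the 17 markers in the same library, some carriers had ratios that were separate between groups and others did not. The log2 ratio of Slc13a4 was -0.30, -0.31 and 0.05 in Naive mice, 0.79, 0.64 and 1.28 in Sham mice and 0.56, 0.81, 1.26 and 1.04 in SAH mice, so Sham and SAH mice overlapped and both lay above Naive mice. That of Slc13a3 was 1.59, 1.91 and 1.59 in Naive mice, 1.32, 1.51 and 1.37 in Sham mice and 1.01, 0.97, 0.68 and 1.10 in SAH mice, falling from group to group with no overlap. The ratio of Slc22a6 was lower in all Naive mice (-1.14 to -0.72) than in all Sham mice (-0.36 to -0.05), while SAH mice spread from -0.79 to -0.02. The ratios of Slc6a13, Slc6a12, Slc6a20a, Slc22a8 and Slc47a1 overlapped between all groups. Those of Slc6a20a, for example, averaged 0.46 ± 0.131 (SD, n = 3) in Naive, 0.62 ± 0.318 (SD, n = 3) in Sham and 0.54 ± 0.433 (SD, n = 4) in SAH mice. A ratio within a library shows unequal change of the carrier and the markers and does not by itself say which moved. In CPM, Slc13a3 averaged 13.2 in Naive, 14.3 in Sham and 17.9 in SAH mice. Its falling ratio thus did not go with a falling mean level, though SAH mouse 3 lay below all control mice.

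**Figure D3:**
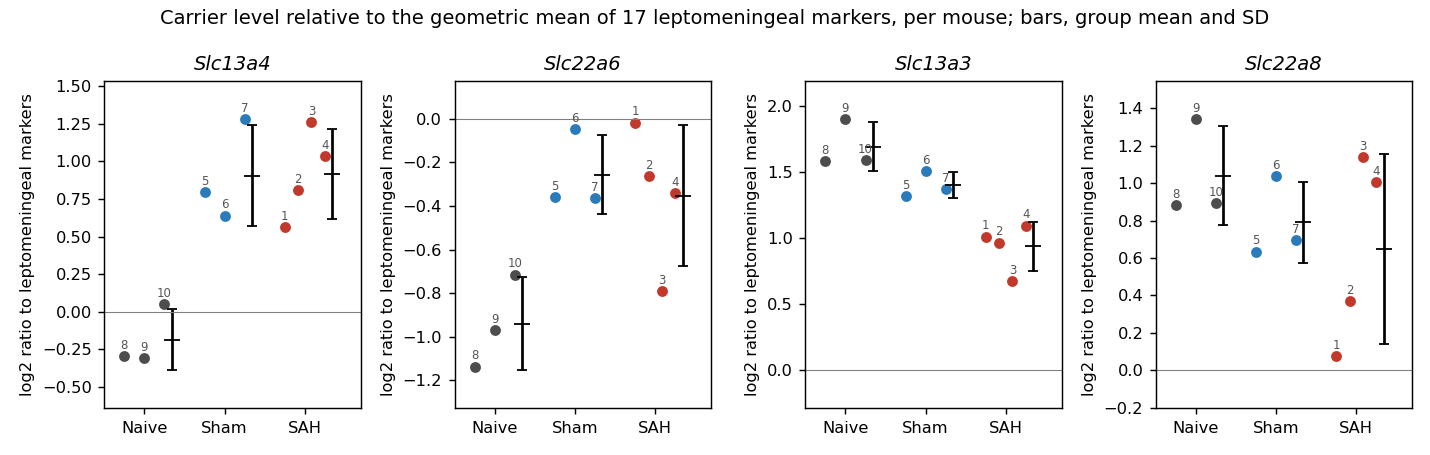
Level of 4 carriers relative to 17 leptomeningeal markers (y axis, log2 ratio of CPM to the markers' geometric mean in the same library) in Naive, Sham and SAH mice (x axis). Points are mice with their numbers and bars are the group mean and SD. The ratio of Slc13a4 is higher in Sham and SAH than in Naive mice, and that of Slc13a3 is lowest in SAH mice.

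Markers of other cells were read beside the carriers. In SAH against control, edgeR called 3.13% of all genes higher, 17.0% had an unadjusted p under 0.05 and DESeq2 called 6.42% higher or lower. These shares stand beside the counts of every list below in that comparison. Of the 13 choroid plexus markers, edgeR and DESeq2 each called 0 in SAH against control (2 at an unadjusted p under 0.05 in edgeR, beside 17.0% of all genes), with a median log2 fold change of 1.00 and SAH mice spread from 114 to 1265 CPM. This count rested on Sham mouse 7: without it 12 were tested and 10 rose, with a median of 1.98. Without SAH mouse 3 the median was 0.59, and without SAH mice 3 and 4 and Sham mouse 7 it was 0.53, with 0 called in either fit. The 4 most abundant were Ttr, the thyroid hormone carrier transthyretin (1.64 ± 0.989, adjusted p = 0.427; 3.25, adjusted p = 0.0599 without Sham mouse 7), Kl (0.58 ± 0.257, adjusted p = 0.271), Prlr (0.53 ± 0.327, adjusted p = 0.438) and Clic6 (1.31 ± 0.619, adjusted p = 0.302). SAH mouse 3 was the highest library for these markers and, counted from the highest of the 10 mice, ranked 3 for Slc22a8, 4 for Slc13a4 and Slc6a12, 5 for Slc6a20a, 7 for Slc6a13 and Slc22a6 and 10 for Slc13a3 and Slc47a1. SAH mouse 1 had 114 CPM of them and was the highest for Slc13a3, Slc22a6 and Slc47a1 and the lowest SAH mouse for Slc22a8. When the choroid plexus score entered the fit, Slc22a8 was the 1 carrier past the threshold (1.01% of all genes were past it and higher). The log2 fold changes in that fit were 1.02 for Slc13a4, 0.54 for Slc13a3, 0.94 for Slc6a13, 1.36 for Slc6a12, 0.84 for Slc6a20a, 1.28 for Slc22a6, 0.63 for Slc22a8 and 1.07 for Slc47a1. Without the score they were, in the same order, 1.26, 0.38, 0.90, 1.29, 0.90, 1.17, 0.65 and 0.54.

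Brain endothelium markers rose for 4 of 8 (median 0.51), among them Cdh5, the junction protein of endothelial cells (0.84 ± 0.127, adjusted p = 0.00385). Pecam1 rose too (0.70 ± 0.159, adjusted p = 0.0331), but not without SAH mouse 4 (0.56, adjusted p = 0.137). With a mouse left out, Flt1 (0.79 ± 0.231, adjusted p = 0.0975) was past the threshold only without SAH mouse 1, SAH mouse 2 or Naive mouse 9, and DESeq2 did not call it. Tie1 (0.58 ± 0.166, adjusted p = 0.0871) was past it only when SAH mouse 1, 2 or 3 or Naive mouse 9 was omitted. The count of endothelial markers that rose was 1 without SAH mouse 4, 2 when Naive mouse 8, Naive mouse 10 or any 1 Sham mouse was omitted, and 7 without SAH mouse 1. Pericyte and smooth muscle markers rose for 4 of 8 (median 0.45), namely Tagln (0.94 ± 0.140, adjusted p = 0.00375), Myh11, Acta2 and Vtn, each in every fit that left out 1 mouse. With the choroid plexus score in the fit, Tagln and Vtn stayed past the threshold, and of the endothelial markers Cdh5 alone. Without the 3 libraries Acta2, Tagln and Vtn did (median 0.31), and of the endothelial markers again Cdh5 alone (median 0.19). Ependymal markers were called in 0 of 5 by edgeR and DESeq2, and 2 had an unadjusted p under 0.05 (17.0% of all genes). Their median was -0.18, with -0.25 to -0.12 when each mouse was left out and -0.05 without the 3 libraries. Of 7 hippocampal neuron markers, 1 rose, the dentate granule cell gene C1ql2 (0.34 ± 0.0931, adjusted p = 0.0727), past the threshold only without SAH mouse 1, SAH mouse 2, Sham mouse 6 or Sham mouse 7 among the fits that left out a mouse.

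**Figure D4:**
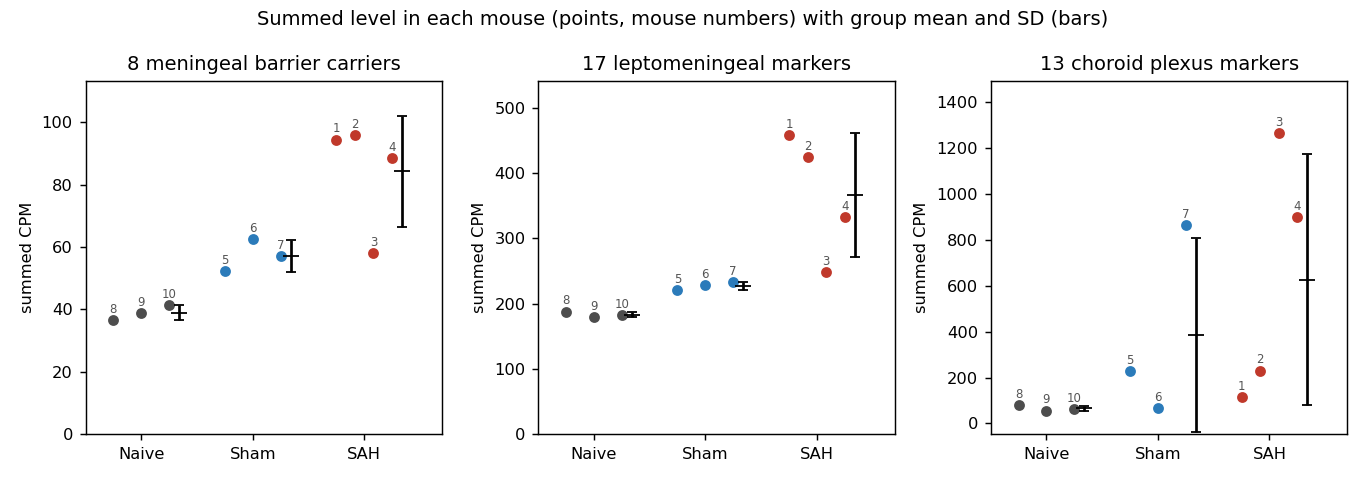
Summed CPM (y axis) of the 8 carriers, 17 leptomeningeal markers and 13 choroid plexus markers in each mouse (points with mouse numbers), with group mean and SD as bars. SAH mouse 3 is the lowest SAH mouse for carriers (58.0 CPM) and leptomeningeal markers (248 CPM) and the highest for choroid plexus markers (1265 CPM).

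Carriers of other barriers were set beside the meningeal ones. Of 13 carriers of brain endothelium, 1 rose in SAH against control, the glutamine carrier Slc38a3 (0.19 ± 0.0532, adjusted p = 0.0856), and with a mouse left out it was past the threshold only without SAH mouse 1, SAH mouse 2 or Sham mouse 7. DESeq2 called 3, Slc38a3, Slc38a5 and Slco2b1, all higher. The edgeR count was 4 without SAH mouse 1 (Slc2a1, Slc38a3, Slco1a4 and Slco2b1), 3 without SAH mouse 2 (Slc38a3, Slc38a5 and Slco2b1), 1 without Sham mouse 6 or Sham mouse 7, and 0 when any 1 of the other mice was omitted. The glucose carrier Slc2a1 had 0.62 ± 0.240 (adjusted p = 0.211), with a range of 0.20 without SAH mouse 3 to 0.80 without SAH mouse 1, where it was past the threshold (adjusted p = 0.0699). Of 12 carriers of choroid plexus epithelium 9 were tested, 0 were called higher by edgeR and 1 fell, the sodium, potassium and chloride carrier Slc12a2 (-0.20 ± 0.0586, adjusted p = 0.0890), held with a mouse left out only without SAH mouse 3 or Sham mouse 6. With no filter on low counts all 12 were tested, and edgeR also called 1 higher, Slco1a5. The bicarbonate carrier Slc4a5 had 2.06 ± 0.825 (adjusted p = 0.223), and 3.55 without Sham mouse 7, where it was past the threshold (adjusted p = 0.0278). Of 6 efflux pumps 2 rose: Abcb1a, which encodes P-glycoprotein (0.71 ± 0.158, adjusted p = 0.0294; 0.124 without SAH mouse 4), and Abcg2 (0.23 ± 0.0643, adjusted p = 0.0792; with a mouse left out, past the threshold only without SAH mouse 1, Sham mouse 5 or Sham mouse 7). DESeq2 called these and Abcc4, and edgeR with no filter called Abcb1a alone. The medians of the 3 lists were 0.19 (0.10 without SAH mouse 4), -0.01 (-0.05 without SAH mouse 2 to 0.02 without SAH mouse 1) and 0.25 (0.20 to 0.29 with each mouse left out).

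The carriers' own families held 43 further genes, of which 18 were tested, 0 rose and 1 fell in SAH against control by edgeR (median -0.08, and -0.04 without SAH mouse 4). When SAH mouse 1 or Sham mouse 7 was left out, 1 rose and 2 fell. Without SAH mouse 3, 1 rose and 0 fell, and 0 were called without SAH mouse 4 or any 1 Naive mouse. The glycine carrier Slc6a9 fell (-0.24 ± 0.0586, adjusted p = 0.0521), past the threshold also without SAH mouse 1, SAH mouse 2 or any 1 Sham mouse, and not without SAH mouse 3, SAH mouse 4 or any 1 Naive mouse. At an unadjusted p under 0.05 there were 6 (17.0% of all genes). DESeq2 called 3 (6.42% of the genes it tested), of which Slc22a2 rose and Slc6a9 and Slc22a23 fell. Slc22a2, an organic cation carrier with 1 to 28 counts per mouse, had a log2 fold change above those of the 8 carriers (1.53, adjusted p = 0.0747 by DESeq2), though edgeR did not call it (adjusted p = 0.111). By edgeR it was past the threshold without SAH mouse 3 (1.77, adjusted p = 0.0250) or Sham mouse 7 (1.78, adjusted p = 0.0791). In SAH against Naive it rose (2.41, adjusted p = 0.0622), though not when SAH mouse 4 or any 1 Naive mouse was omitted (adjusted p up to 0.251). A count of 0 in every mouse was found for 8 genes: Slc6a14, Slc22a13, Slc22a19, Slc22a20, Slc22a22, Slc22a26, Slc22a27 and Slc22a28.

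**Figure D5:**
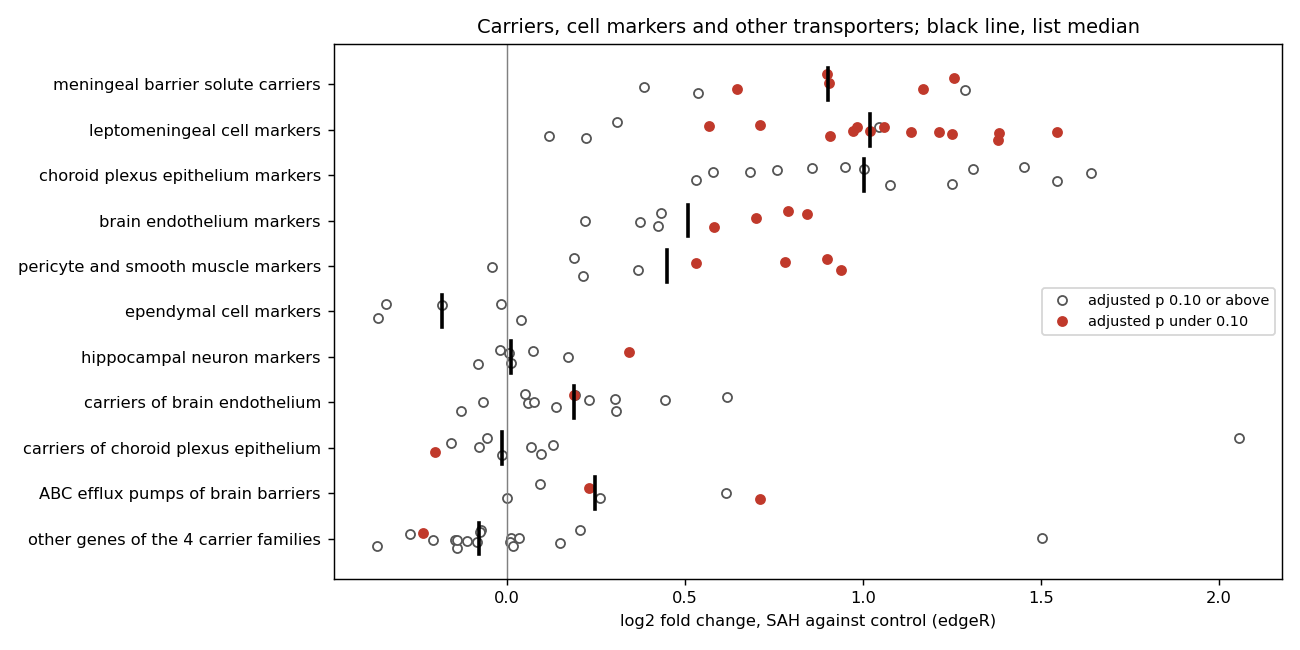
edgeR log2 fold change for SAH against control (x axis) of each tested gene (points) of the carriers, the marker lists and the lists of other transporters (y axis). Filled points have an adjusted p under 0.10 and black lines are medians. Medians are 0.90 for the carriers, 1.02 for leptomeningeal markers, 1.00 for choroid plexus markers, 0.01 for neuron markers and -0.08 for the other genes of the 4 carrier families, with Slc22a2 the 1 family gene past 1.

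From mouse to mouse the carriers went together to unequal degrees. Pearson's r of log2 CPM across the 10 mice was positive for all 28 pairs. It ranged from 0.20 to 0.93 (median 0.74), a range to which the group differences contribute. With group means taken off, it ranged from -0.30 to 0.94 (median 0.39) and was positive for 25 pairs. Slc13a3 and Slc22a6 were most alike in this way (0.94), then Slc22a6 and Slc47a1 (0.87). Slc6a20a and Slc22a8 went together too (0.69). The neighbours Slc22a6 and Slc22a8 had 0.02 and the neighbours Slc6a13 and Slc6a12 had 0.30. All pairs share the same 10 libraries, and SAH mouse 3, low for some carriers and not for others, is among them.

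Of all tested genes outside the list, those most like the mean standardised profile of the 8 carriers over the 10 mice were Bmp5 (r = 0.98), Thbs2 (0.97), Angpt2 (0.97), Ogn (0.96), Mrc2 (0.96), Fmod (0.96), Thbd (0.96), Bmp7 (0.94), Aldh1a2 (0.94) and Ptgdr (0.94). With group means taken off, their r lay between 0.72 and 0.92. Ogn and Aldh1a2 are also on the list of leptomeningeal markers. Among the carriers themselves, Slc22a6 was nearest to the mean profile (0.98) and Slc47a1 farthest (0.66). With group means taken off, Slc22a6 was again nearest (0.96), Slc47a1 had 0.84 and Slc22a8 was farthest (0.21). Each carrier is part of the mean profile, which raises its r, so these values cannot be set against those of the outside genes.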

How the data were processed

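RNA was depleted of ribosomal RNA and made into stranded paired-end libraries, 1 per mouse. The authors aligned the reads to mm9 with STAR and counted them with featureCounts 1.6.2 by strand and gene name, keeping uniquely mapped pairs on 1 gene. The deposited values are whole read counts per gene, not normalized. Near-identical gene copies lose reads in such counting.

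Here, counts were scaled by TMM and tested with edgeR 4.0.16 in R 4.3.3 (filterByExpr, minimum count 10 and minimum total 15; quasi-likelihood test; Benjamini-Hochberg adjustment over all genes tested; threshold 0.10). SAH against control came from a fit of 2 groups and pairwise comparisons from a fit of all 3, so that leaving out a mouse of the remaining group also moves their p-values. SE is the log2 fold change divided by the square root of F. Mice are separate animals of 1 batch. Scripts were tested on simulated data. A count of 0 allows up to 3 counts, for counting error only.

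The members, gene lists, motifs and tests were chosen with earlier results of these data known. Named genes were the 8 members, up to 4 genes of each list past the threshold with the largest log2 fold change (the 4 most abundant where none passed), past-threshold and undetected family genes, family neighbours, and the 10 genes most like the mean carrier profile. Slc2a1, Slc4a5, Slc22a2, Slc22a23, Slc38a5, Slco1a4, Slco1a5, Slco2b1, Abcc4 and Kcnj13 were named after their values were seen, and not every gene under the rule is described. Alternatives were DESeq2 1.42.0, its size factors, library size alone, no filter, a stricter filter (10 counts or more in each mouse), a threshold of 0.05, each mouse left out, and a choroid plexus covariate. Leaving out SAH mice 3 and 4 and Sham mouse 7 together was chosen after seeing the data. Promoters were read from NCBIM37, the same build as mm9, and that of Slc22a8 is not reported here. Protein sequences were not analysed here.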

Additional observations from a re-analysis of the deposited data

Results flagged for a closer look

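The 4 SAH mice and the 6 control mice were tested for each summed or single level, and the groups of 3 Sham or 3 Naive mice were not tested alone. In 3 of these 36 sets of mice, 1 mouse lay far from the others of its group by Dixon's test, where chance gives about 1 in 20. Among the control mice, Sham mouse 7 had 865 CPM of choroid plexus epithelium markers and the others 56.1 to 227 CPM (gap over range 0.789). Among the control mice, Naive mouse 9 had 129.7 CPM of brain endothelium markers and the others 93.6 to 106.2 CPM (0.651). Among the SAH mice, mouse 4 had 249.98 CPM of pericyte and smooth muscle markers and the others 185 to 195 CPM (0.848). No single carrier had such a mouse among the 4 SAH or the 6 pooled control mice. Slc6a13 was not flagged, though SAH mouse 3 had 5.96 CPM and the other SAH mice 13.6 to 15.4 CPM. Pooling Sham and Naive mice widens the control range, so a mouse apart within 1 of these groups could go unflagged. In these 3 libraries Slc13a4 was at 13.1, 3.09 and 16.9 CPM, the highest Sham, the lowest Naive and the third highest SAH value.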

How the results depend on the processing

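No paired analysis was possible because the groups share no replicate numbers. Of the 8 carriers, 5 were past the threshold in SAH against control (3.13% of all genes were past it and higher). The count was 1 with a choroid plexus covariate (1.01%) and 4 with DESeq2 (6.42%, higher or lower). It was 2 at an adjusted p under 0.05, where the share of all genes was not taken. With each mouse left out it was 2 to 6 (1.48% to 4.55%). In SAH against Sham the count was 0 (0.529%), with DESeq2 3 (1.91%, higher or lower), and without a filter 2 (0.686%). Without SAH mice 3 and 4 and Sham mouse 7 together it was 4 (0.694%), and 0 to 6 with each mouse left out (0.0393% to 1.10%). In SAH against Naive it was 6 (2.03%), and 2 to 7 with each mouse left out (0.570% to 2.94%). In Sham against Naive it was 1 (0.00661%), and 0 to 1 with each mouse left out (0.00% to 0.00664%). Of the genes of the other lists, 27 were past the threshold in SAH against control, 17 with the covariate and 18 to 37 with each mouse left out. The causes were not tested. The log2 fold changes of the 8 carriers in SAH against control stayed above 0 in every alternative, and in Sham against Naive that of Slc47a1 turned to -0.16 without Sham mouse 6 (as in SAH against Sham without SAH mouse 1, -0.03; range in Sham against Naive -0.16 to 0.51 with each mouse left out). Over all genes, 701 were past the threshold in SAH against control, 1035 with DESeq2 among 19538 with a count, 209 with the covariate and 330 without the 3 libraries. Depth limits Slc6a12 and Slc47a1 most, with 2 to 56 and 12 to 52 counts per mouse.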
